A study of Mus musculus with 8 samples.

Results

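Zinc transporters and metallothioneins are described here as 10 genes, found by their symbols among the 24013 in the table of expression values of sorted mouse intestinal epithelial cells. They are the importers Slc39a4, Slc39a5 and Slc39a7, the exporters and vesicle loaders Slc30a1, Slc30a2, Slc30a4 and Slc30a7, the metallothioneins Mt1 and Mt2, and the zinc-sensing transcription factor Mtf1. All 10 were listed, and all 10 passed the filter on low values; Slc30a1 passed it through the CD24- libraries only. The question behind the choice is that Paneth cell granules store zinc, while the sorted CD24- cells descend from cells that had expressed a Paneth cell gene.

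The cells came from mice aged 8 to 14 weeks of a mixed C57/BL6 and 129 background, genotype Lyz1CreER; R26R-tdT, in which the Lyz1 promoter drives a tamoxifen-inducible Cre that switches on the tdTomato (tdT) reporter in cells expressing lysozyme and leaves it on in their descendants. Every mouse had received tamoxifen, 10 mg in a single dose, and every sorted cell was tdT+, EpCAM+ and CD45-. The 8 libraries formed 3 groups: irradiated tdT+CD24- cells, which the submitters call derivatives of Paneth cells (3 libraries), irradiated tdT+CD24+ cells, which they call Paneth cells (3 libraries), and tdT+CD24+ cells of mice that were not irradiated (2 libraries); irradiated mice were sampled 5 days after radiation. CD24- cells of mice that were not irradiated were not analysed here, so the CD24- cells could be compared only within the irradiated mice or with a group that differed in gate and in irradiation at once. No label says that the libraries of a group came from separate mice, so p-values measure the spread between these samples, which may be technical.

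Cells take up zinc through the ZIP importers, encoded by Slc39a genes, and move it out of the cytosol, across the plasma membrane or into vesicles, through the ZnT transporters, encoded by Slc30a genes. Metallothioneins are small cysteine-rich proteins that bind zinc in the cytosol, and Mtf1 encodes the transcription factor that, when zinc is high, binds metal response elements in front of the metallothionein genes and Slc30a1. In the small intestine, absorptive enterocytes take up dietary zinc at their apical membrane by ZIP4 (Slc39a4), and Paneth cells load zinc into their secretory granules by ZnT2 (Slc30a2).

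The promoters of the Mtf1 target genes Mt1, Mt2 and Slc30a1 are shown because these 3 genes are the textbook readout of cytosolic zinc. Each is the RefSeq window of 300 bases from 250 before to 50 after the transcript start in build GRCm38.p6, at chr8:94178839-94179138 (plus strand) for Mt1, chr8:94172368-94172667 (plus strand) for Mt2 and chr1:191906531-191906830 (plus strand) for Slc30a1. Capitals mark the core of the metal response element, searched as TGCACNC or TGCGCNC on both strands; a match on the minus strand appears as its reverse complement, and no matches overlapped.
Mt1: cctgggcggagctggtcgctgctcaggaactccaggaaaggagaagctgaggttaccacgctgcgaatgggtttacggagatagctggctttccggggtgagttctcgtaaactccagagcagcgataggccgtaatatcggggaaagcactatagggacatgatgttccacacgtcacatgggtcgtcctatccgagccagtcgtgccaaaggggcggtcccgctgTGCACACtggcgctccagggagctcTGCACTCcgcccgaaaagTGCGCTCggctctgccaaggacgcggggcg
Mt2: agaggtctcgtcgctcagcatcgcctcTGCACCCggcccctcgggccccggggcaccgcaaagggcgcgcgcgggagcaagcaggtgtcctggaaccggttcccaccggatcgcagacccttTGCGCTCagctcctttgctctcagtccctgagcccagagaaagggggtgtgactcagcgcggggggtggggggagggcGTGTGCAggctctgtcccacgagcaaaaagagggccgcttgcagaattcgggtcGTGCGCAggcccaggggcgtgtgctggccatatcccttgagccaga
Slc30a1: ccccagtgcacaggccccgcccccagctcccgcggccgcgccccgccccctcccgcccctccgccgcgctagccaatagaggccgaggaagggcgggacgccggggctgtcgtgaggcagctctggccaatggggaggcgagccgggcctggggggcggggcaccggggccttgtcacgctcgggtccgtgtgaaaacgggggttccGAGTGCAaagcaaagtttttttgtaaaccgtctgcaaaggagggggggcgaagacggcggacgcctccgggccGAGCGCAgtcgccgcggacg
The Mt2 window held 4 matches, that of Mt1 held 3 and that of Slc30a1 held 2. Among all 32851 promoter windows of that length, 25.7% held at least 1 match, 7.11% at least 2, 1.97% at least 3 and 0.517% at least 4. Windows were found for 9 of the 10 genes, Slc39a4 being the exception. The Slc30a4 window held 3 matches and that of Slc30a2 held 2, those of Mtf1, Slc30a7 and Slc39a7 held 0, and of the 2 Slc39a5 windows 1 held a single match. A match is a run of letters and says nothing of binding, and 0 matches says only that these letters are not in this window. The nearest GENCODE transcript starts lay 7 bases upstream of the RefSeq start for Mt1, 14 upstream for Slc30a1 and 46 downstream for Mt2. Further protein-coding starts lay 122 and 152 bases downstream for Mt1, 242 for Mt2 and 475 for Slc30a1. These lie past the end of the window, so every match shown is upstream of them, and the window does not reach up to them.

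Expression is given in FPKM, fragments per kilobase of transcript scaled to the fragments mapped in the library, so that levels can be compared between genes. Because FPKM is a share of the library, the abundance of Paneth cell products bears on every value. The 35 listed products (lysozyme, defensins and others) took 1.85% to 12.3% of the summed FPKM in irradiated CD24- libraries. They took 72.1% to 75.4% in irradiated CD24+ libraries and 76.6% to 82.1% in CD24+ libraries of mice not irradiated. FPKM divides by transcript length, so short transcripts weigh more in these sums than among the fragments. The share of fragments held by these products was not measured. Cd24a, the gene of the sorting marker, averaged 77.4 ± 39.9 FPKM in irradiated CD24- cells, 698 ± 44.7 FPKM in irradiated CD24+ cells and 642 ± 29.9 FPKM in CD24+ cells of mice not irradiated. Of the 33 products tested, 32 were lower in irradiated CD24- than in irradiated CD24+ cells, and of 15 absorptive enterocyte markers 15 were higher. None of those enterocyte markers was at 0 throughout a group, and their summed level was 20995 to 44115 FPKM in irradiated CD24- libraries, 1111 to 1672 FPKM in irradiated CD24+ libraries and 686 to 3007 FPKM in CD24+ libraries of mice not irradiated. In such bulk samples, fewer cells of a type and less RNA per cell cannot be told apart. Replicate 1 of the mice not irradiated stood apart, with 9362 genes at 1 FPKM or more. The irradiated CD24+ libraries had 10293 to 10555 and its own replicate 2 had 10344. The median-of-ratios factor, a typical level of all genes in a library, was 0.528 in it and 0.867 in replicate 2. Of the 10 zinc genes, 9 were lower in it than in replicate 2. The share of all genes lower in it was not counted, and lower values there were not particular to zinc genes. Depth, estimated from the value of a single read, was about 34700000 to 45200000 reads per library, and the zinc genes held about 64.4 reads (Mt2) to 12217 reads (Slc39a4) in a library.

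Between irradiated CD24- and irradiated CD24+ cells, the zinc genes past the threshold lay in both directions. The importers Slc39a4 and Slc39a5, the exporter Slc30a1, the vesicle transporter Slc30a4 and Mtf1 were higher in CD24- cells, by 2.79 to 6.29 times in mean FPKM. The upper end was that of Slc30a1, which was under 1 FPKM in every CD24+ library. Slc30a1 entered the test through the CD24- libraries only, so a difference was built into its call, which is counted below. Slc30a2, the granule transporter, was lower, at 0.647 times the CD24+ mean. In all, 5 of the 10 genes were called higher and 1 lower (limma, adjusted p under 0.05), beside 48.6% of all 11190 genes tested called higher, 7.27% lower and 55.9% in either direction; a share of called genes near that background is no result about the group. The median log2 fold change was 1.16 over the 10 genes and 0.51 over all genes tested, and 6 of the 10 lay above the median of all genes tested.

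**Figure D1:**
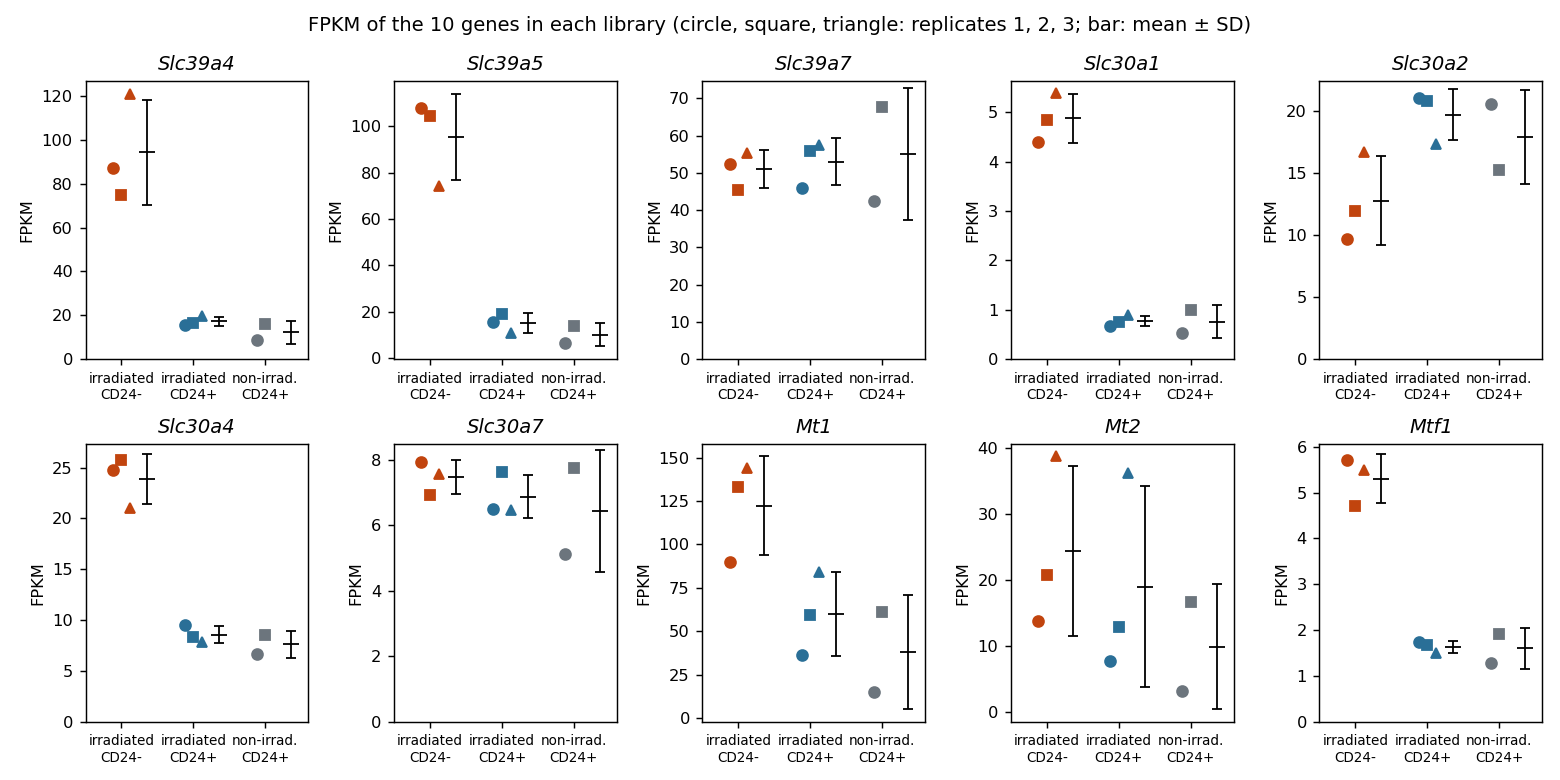
FPKM (vertical axes, linear, from 0) of each of the 10 genes in each of the 8 libraries; points are replicates 1 to 3, bars are the mean ± SD, and the groups run from irradiated CD24- through irradiated CD24+ to CD24+ cells of mice not irradiated. The 3 CD24- libraries stand clear of all 5 CD24+ libraries for Slc39a4, Slc39a5, Slc30a1, Slc30a4, Mt1 and Mtf1, all higher in CD24- cells, while Slc39a7 and Slc30a7 overlap. Such separation was not counted over all genes, so it is no result about these genes as a group. The 48.6% of all genes called higher between the irradiated gates is another measure. Slc30a1 passed the filter on low values through the CD24- libraries only, so a difference was built into its being tested.

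Slc39a4 encodes the apical zinc importer whose human counterpart is mutated in acrodermatitis enteropathica, an inherited zinc deficiency. It was measured at 87.0, 75.0 and 121 FPKM in the 3 irradiated CD24- libraries, at 15.5, 16.5 and 19.5 FPKM in the 3 irradiated CD24+ libraries, and at 8.58 and 16.0 FPKM in the 2 CD24+ libraries of mice not irradiated. Every CD24- library was above every CD24+ library, and the irradiated CD24+ range overlapped that of mice not irradiated. The mean was 94.4 ± 23.9 FPKM in irradiated CD24- cells and 17.2 ± 2.08 FPKM in irradiated CD24+ cells (SD, n = 3 each), a log2 fold change of 2.37 ± 0.26 (SE; limma, adjusted p = 3.36e-05). Same-numbered libraries of the 2 gates differed 5.61, 4.55 and 6.21 times.

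Slc39a5 encodes ZIP5, an importer found at the basolateral membrane of enterocytes. Its level was 108, 105 and 74.0 FPKM in irradiated CD24- libraries, 15.8, 19.2 and 10.8 FPKM in irradiated CD24+ libraries, and 6.61 and 13.7 FPKM in CD24+ libraries of mice not irradiated. The CD24- libraries were again the 3 highest, and the log2 fold change between the irradiated gates was 2.58 ± 0.30 (SE; limma, adjusted p = 3.91e-05), the largest among the 10 genes. Between the irradiated gates the enterocyte markers given above were higher in CD24- cells, as both importers were. Within the CD24- group their sum rose over replicates 1, 2 and 3, at 20995, 27915 and 44115 FPKM. Over the same libraries Slc39a5 fell and Slc39a4 was lowest in replicate 2. The part of these markers in the result was not tested.

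The order of the 2 importers was not fixed. Slc39a5 was 1.24, 1.39 and 0.611 times Slc39a4 in irradiated CD24- replicates 1, 2 and 3, and 1.02, 1.16 and 0.553 times in irradiated CD24+ replicates 1, 2 and 3. The ratio was 0.771 and 0.856 in mice not irradiated. Replicate 3 was thus the lowest in both irradiated gates, with the higher Slc39a4 and the lower Slc39a5 of its group; this ratio was singled out after its values were seen and was not tested.

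Slc39a7 encodes ZIP7, which releases zinc from the endoplasmic reticulum into the cytosol. It stood at 52.4, 45.5 and 55.3 FPKM in irradiated CD24- libraries, 45.8, 55.8 and 57.4 FPKM in irradiated CD24+ libraries, and 42.5 and 67.7 FPKM in CD24+ libraries of mice not irradiated. The 3 groups overlapped, and the log2 fold change between the irradiated gates was -0.051 ± 0.23 (SE; limma, adjusted p = 0.866). Among all genes ranked by mean level, Slc39a7 stood at rank 1580 for the irradiated CD24- gate, 676 for the irradiated CD24+ gate and 469 for the CD24+ gate of mice not irradiated. A like FPKM thus went with a lower rank in CD24- cells.

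Slc30a1 encodes ZnT1, the zinc exporter of the plasma membrane. Its level was 4.40, 4.85 and 5.39 FPKM in irradiated CD24- libraries, 0.679, 0.757 and 0.889 FPKM in irradiated CD24+ libraries, and 0.518 and 0.993 FPKM in CD24+ libraries of mice not irradiated. No CD24+ library reached 1 FPKM and no CD24- library was below 4 FPKM. Its mean of 4.88 ± 0.494 FPKM in irradiated CD24- cells was 6.29 times the 0.775 ± 0.106 FPKM in irradiated CD24+ cells (SD, n = 3 each), and the log2 fold change was 1.73 ± 0.17 (SE; limma, adjusted p = 1.36e-05). Because it entered the test through the CD24- libraries alone, a difference was built into its being tested; with no filter on low values the adjusted p was 0.000447. On the log2(FPKM + 1) scale a fold change of so low a gene is understated. Same-numbered libraries differed 6.48, 6.40 and 6.06 times, the narrowest relative spread of the called genes.

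Slc30a4 encodes ZnT4, which loads zinc into vesicles and is mutated in the lethal milk mouse. It was at 24.8, 25.7 and 21.1 FPKM in irradiated CD24- libraries, 9.47, 8.29 and 7.86 FPKM in irradiated CD24+ libraries, and 6.66 and 8.58 FPKM in CD24+ libraries of mice not irradiated. The gates did not overlap, with a log2 fold change of 1.38 ± 0.19 (SE; limma, adjusted p = 0.000108).

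Slc30a2 encodes ZnT2, which loads zinc into secretory granules. It was at 9.68, 11.9 and 16.7 FPKM in irradiated CD24- libraries, 21.0, 20.7 and 17.3 FPKM in irradiated CD24+ libraries, and 20.5 and 15.2 FPKM in CD24+ libraries of mice not irradiated. The irradiated gates were separate only by the small gap between the highest CD24- and the lowest CD24+ library, and the CD24- range overlapped that of the mice not irradiated. The log2 fold change between the irradiated gates was -0.62 ± 0.23 (SE; limma, adjusted p = 0.0381), and same-numbered libraries gave 0.461, 0.572 and 0.963 times.

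The Slc30a2 call was the least secure of the 6. It was lost without the filter on low values (adjusted p = 0.0614), without CD24+ replicate 1, 2 or 3 (adjusted p = 0.118, 0.116 and 0.0529) and without CD24- replicate 1 or 2 (adjusted p = 0.172 and 0.111). After removal of the Paneth cell products and rescaling every library to one common sum, its level was 18.9, 21.1 and 31.4 in irradiated CD24- libraries, 59.7, 55.9 and 48.3 in irradiated CD24+ libraries, and 70.1 and 45.4 in CD24+ libraries of mice not irradiated, with no overlap between the gates; the log2 fold change between the irradiated gates was then -1.19 (adjusted p = 0.00250). Rescaled as TPM, in which all genes of every library add up to one common sum, it turned to 0.58 (adjusted p = 0.0457), while the median of all genes moved to 1.60. Relative to the median of all genes, it was lower by 0.77 to 1.37 on the log2 scale under every one of the 17 alternatives. By rank among all genes it stood at 4742 for the irradiated CD24- gate, 1957 for the irradiated CD24+ gate and 1680 for the CD24+ gate of mice not irradiated.

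Within the CD24- group, Slc30a2 was lowest, at 9.68 FPKM, in the library where those products took 12.3% of the FPKM, and highest, at 16.7 FPKM, in that where they took 1.85%. Enteroendocrine markers, 10 genes with none at 0 throughout a group, were called higher for 3 and lower for 1 in irradiated CD24- cells. Their summed level was 421 to 3724 FPKM in irradiated CD24- libraries, 278 to 1187 FPKM in irradiated CD24+ libraries and 149 to 155 FPKM in CD24+ libraries of mice not irradiated, with the CD24- maximum in the library where Slc30a2 was highest. The absorptive enterocyte markers, at 44115 FPKM, and the 7 stromal markers, at 44.6 FPKM, had their maximum in that library too. Of the 7 stromal markers only 1 passed the filter on low values, and Col1a2 and Acta2 were at 0 throughout the CD24- group. The 9 goblet markers had their minimum in that library, at 6103 FPKM against 11445 and 10524 FPKM in CD24- replicates 1 and 2. The part of these cell types in the Slc30a2 values was not tested.

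Slc30a7 encodes ZnT7, which supplies zinc to the early secretory pathway. It stood at 7.93, 6.92 and 7.57 FPKM in irradiated CD24- libraries, 6.50, 7.62 and 6.47 FPKM in irradiated CD24+ libraries, and 5.12 and 7.75 FPKM in CD24+ libraries of mice not irradiated. The groups overlapped and the log2 fold change between the irradiated gates was 0.11 ± 0.19 (SE; limma, adjusted p = 0.641). In ranks it stood at 6346 for the irradiated CD24- gate, 5043 for the irradiated CD24+ gate and 4404 for the CD24+ gate of mice not irradiated.

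Mt1 encodes the more abundant of the 2 metallothioneins in these libraries. Its level was 90.0, 133 and 144 FPKM in irradiated CD24- libraries, 36.2, 59.6 and 84.2 FPKM in irradiated CD24+ libraries, and 14.7 and 61.2 FPKM in CD24+ libraries of mice not irradiated. Every CD24- library was above every CD24+ library, by a narrow gap. The log2 fold change between the irradiated gates was 1.07 ± 0.46 (SE, limma, adjusted p = 0.0713), which missed the threshold. With the replicate number as a block in the 6 irradiated libraries, a pairing read from these data, its limma adjusted p was 0.000139. It also passed without CD24+ replicate 3 (1.35, adjusted p = 0.0368) and without replicate 1 or 2 of the mice not irradiated (adjusted p = 0.0168 and 0.0165), and those 2 libraries enter it only through the shared estimate of the spread. Same-numbered libraries differed 2.49, 2.23 and 1.71 times, while the levels within a gate spread over as much as 2.33 times.

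Mt2, its neighbour on the same chromosome, encodes a metallothionein of the same function. Its level was 13.8, 20.7 and 38.7 FPKM in irradiated CD24- libraries, 7.74, 12.9 and 36.2 FPKM in irradiated CD24+ libraries, and 3.17 and 16.5 FPKM in CD24+ libraries of mice not irradiated. The groups overlapped, with replicate 3 the highest in both irradiated gates. The log2 fold change between the irradiated gates was 0.50 ± 0.60 (SE; limma, adjusted p = 0.500) and the block gave an adjusted p of 0.0214, with same-numbered libraries differing 1.78, 1.61 and 1.07 times. Mt2 was the most variable of the 10 genes, with a coefficient of variation of 52.7% over the irradiated CD24- libraries, 80.1% over the irradiated CD24+ libraries and 96.0% over the 2 libraries of mice not irradiated. Mt2 turned to -0.035 after median-of-ratios scaling, -0.034 without Paneth cell products and -0.36 after quantile normalization. Mt1 was at 0.51 under the first 2 of these scalings and turned to -0.18 after quantile normalization.

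The ratio of Mt2 to Mt1 within a library is not altered by a scaling that multiplies all genes of the library by 1 factor; quantile normalization does alter it. It was 0.153, 0.156 and 0.269 in irradiated CD24- libraries, 0.214, 0.216 and 0.430 in irradiated CD24+ libraries, and 0.215 and 0.270 in CD24+ libraries of mice not irradiated. Replicate 3 had the highest ratio in both irradiated gates, and each CD24- library was below its same-numbered irradiated CD24+ library. The mean log2 ratio differed by -0.55 between irradiated CD24- and irradiated CD24+ cells (exact two-sided permutation test, p = 0.3), and 3 libraries against 3 cannot give a p below 0.1. Within same-numbered irradiated libraries the difference was -0.48, -0.47 and -0.68, lower in CD24- cells in 3 of 3 pairs (exact two-sided sign-flip permutation test, p = 0.25, the smallest that 3 pairs can give); this paired test was added after the values were seen. The mean log2 ratio differed by 0.17 between irradiated and not irradiated CD24+ cells (exact two-sided permutation test, p = 1; smallest possible 0.2) and by -0.38 between irradiated CD24- cells and CD24+ cells of mice not irradiated (exact two-sided permutation test, p = 0.4; smallest possible 0.2). These are raw p-values, and the comparisons were 3, none of which could pass the threshold.

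**Figure D2:**
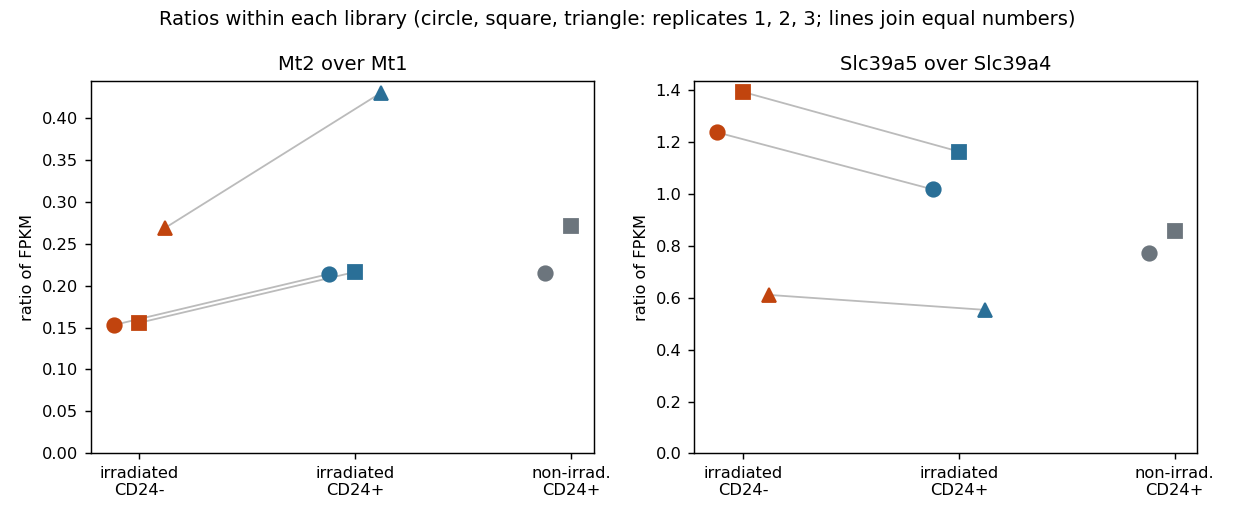
Ratios of FPKM within each library (vertical axes, linear, from 0), by group, with lines joining equal replicate numbers. The Mt2 to Mt1 ratio is highest in replicate 3 of both irradiated gates, at 0.269 in CD24- and 0.430 in CD24+ cells, and the Slc39a5 to Slc39a4 ratio is lowest there, at 0.611 and 0.553.

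Mtf1 was at 5.71, 4.70 and 5.50 FPKM in irradiated CD24- libraries, 1.75, 1.68 and 1.50 FPKM in irradiated CD24+ libraries, and 1.29 and 1.91 FPKM in CD24+ libraries of mice not irradiated. The gates did not overlap, and the log2 fold change was 1.25 ± 0.17 (SE; limma, adjusted p = 0.0001). The kit keeps no strand, and GENCODE places 721 bases of an exon of 1110065P20Rik on the opposite strand over Mtf1 exons; 1110065P20Rik averaged 8.41 FPKM in irradiated CD24- cells, 8.20 FPKM in irradiated CD24+ cells and 6.75 FPKM in CD24+ cells of mice not irradiated. Its reads and those of Mtf1 cannot be told apart over that stretch. For Slc30a1, the overlapping gene 1700034H15Rik averaged at most 0.0558 FPKM. GENCODE also places exons over those of Slc39a7 (Gm20427, same strand, 800 bases) and Slc30a7 (Gm6649, 1165 bases, and Gm43106, 637 bases). Smaller overlaps lie on Mt2 (Gm45774, 212 bases) and Slc30a4 (4930417H01Rik, 130 bases). These overlapping genes have no FPKM here, so their share of the reads is not known.

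By order of mean level, irradiated CD24- cells ran Mt1, Slc39a5, Slc39a4, Slc39a7, Mt2, Slc30a4, Slc30a2, Slc30a7, Mtf1 and Slc30a1. The neighbours Mt1 and Slc39a5, Slc39a5 and Slc39a4, Mt2 and Slc30a4, and Mtf1 and Slc30a1 overlapped in their library values. Irradiated CD24+ cells ran Mt1, Slc39a7, Slc30a2, Mt2, Slc39a4, Slc39a5, Slc30a4, Slc30a7, Mtf1 and Slc30a1, with overlaps between Mt1 and Slc39a7 and along the run from Slc30a2 to Slc39a5. In CD24+ cells of mice not irradiated Slc39a7 came first, then Mt1, Slc30a2, Slc39a4, Slc39a5, Mt2, Slc30a4, Slc30a7, Mtf1 and Slc30a1, and only Slc30a7 from Mtf1 and Mtf1 from Slc30a1 were separate. Slc30a2 thus stood above the importers Slc39a4 and Slc39a5 in the mean of both CD24+ groups and below them in CD24- cells. Within a library, Slc39a4 was 8.99, 6.32 and 7.28 times Slc30a2 in irradiated CD24- cells, 0.738, 0.795 and 1.13 times in irradiated CD24+ cells, and 0.418 and 1.05 times in CD24+ cells of mice not irradiated, a ratio that a single factor per library does not alter. The 10 genes summed to 403, 433 and 489 FPKM in irradiated CD24- libraries, 160, 203 and 242 FPKM in irradiated CD24+ libraries, and 110 and 210 FPKM in CD24+ libraries of mice not irradiated.

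FPKM and 4 other scalings were set side by side for the contrast of irradiated CD24- with irradiated CD24+ cells, because the median of all genes in it moved with the scaling: it was 0.51 in FPKM, 1.60 in TPM, 0.038 after median-of-ratios scaling, 0.046 without Paneth cell products and -0.067 after quantile normalization. Over all genes, FPKM gave 5439 higher and 813 lower calls, TPM 10000 and 260, median-of-ratios scaling 3625 and 2725, values without Paneth cell products 2990 and 1988, and quantile normalization 2821 and 3408. Slc39a4, Slc39a5, Slc30a4 and Mtf1 were called higher under all 17 alternatives, and Slc30a1 under the 16 in which it was tested. Their log2 fold changes ranged from 1.26 to 3.60 for Slc39a4, from 1.48 to 3.81 for Slc39a5, from 1.30 to 2.61 for Slc30a1, from 0.57 to 2.57 for Slc30a4 and from 0.80 to 2.23 for Mtf1. Slc39a7 was -0.61 after median-of-ratios scaling (adjusted p = 0.0025) and 1.19 in TPM (adjusted p = 0.0016), and Slc30a7 was -0.38 (adjusted p = 0.0108) and 1.23 (adjusted p = 0.000129), so neither has a direction that holds across scalings. Relative to the median of all genes, Slc39a7 was lower by 0.20 to 1.10 and Slc30a7 lower by 0.040 to 0.62 under every alternative.

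**Figure D3:**
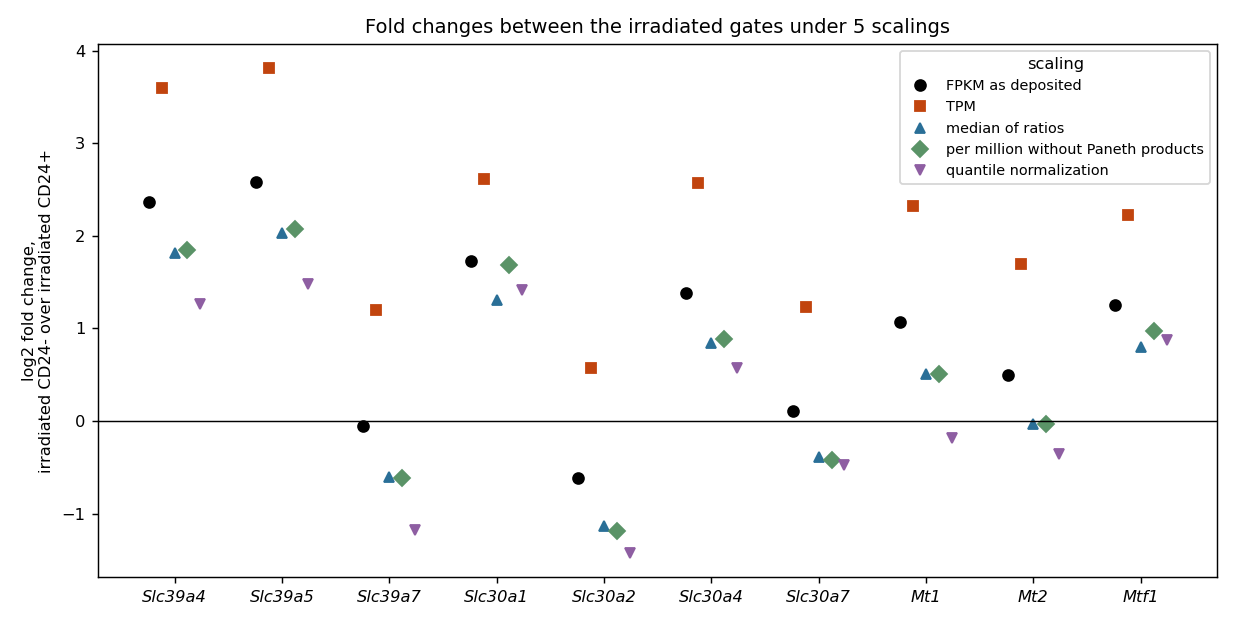
Log2 fold change of irradiated CD24- over irradiated CD24+ cells (vertical axis) for the 10 genes under 5 scalings (colours). Slc39a4, Slc39a5, Slc30a1, Slc30a4 and Mtf1 lie above 0 under each, Slc30a2 lies below 0 except in TPM, where it is 0.58, and Slc39a7 and Slc30a7 lie on either side of 0.

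Irradiation, compared within the CD24+ gate, left no zinc gene past the threshold. The number called was 0 of 10 (limma, adjusted p under 0.05), beside 0 of all genes (0%); at an unadjusted p under 0.05 there were 0 of the 10 and 1424 of all 11190. Log2 fold changes of irradiated over not irradiated CD24+ cells ran from -0.024 (Slc39a7) to 0.95 (Mt2), with limma adjusted p of 0.348 to 0.950. The library values of the 2 groups overlapped for all 10, and overlap was not counted over all genes. The median was 0.15 over the 10 genes and 0.32 over all genes.

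The largest of these differences were those of Mt2, at 0.95 ± 0.67, Mt1, at 0.88 ± 0.52, Slc39a5, at 0.58 ± 0.33, and Slc39a4, at 0.50 ± 0.30 (SE). Slc30a2 differed by 0.14 ± 0.25 and Slc30a4 by 0.15 ± 0.21. All rested on 2 libraries of mice not irradiated that differed among themselves, Mt1 being at 14.7 FPKM in replicate 1 and at 61.2 FPKM in replicate 2. Without replicate 1 the log2 fold change was -0.11 for Mt1 and -0.087 for Mt2. Without replicate 2 it was 1.88 for Mt1 (limma, adjusted p = 0.0210), 0.92 for Slc39a4 (adjusted p = 0.0303) and 1.06 for Slc39a5 (adjusted p = 0.0334), 3 of the 10 genes called beside 5185 of all genes. A miss of the threshold does not show that the groups were alike.

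Irradiated CD24- cells against CD24+ cells of mice not irradiated differ in gate and irradiation together, and this comparison shares its libraries with the other 2. In it 6 of the 10 genes were called higher and 0 lower, beside 65.7% of all genes higher, 4.99% lower and 70.7% in either direction. Slc30a1, among these 6, again entered the test through the CD24- libraries only. The log2 fold change was 3.17 ± 0.33 for Slc39a5 (SE; limma, adjusted p = 2.26e-05), 2.87 ± 0.30 for Slc39a4 (adjusted p = 2.12e-05), 1.75 ± 0.19 for Slc30a1 (adjusted p = 2.39e-05), 1.53 ± 0.21 for Slc30a4 (adjusted p = 9.28e-05), 1.29 ± 0.19 for Mtf1 (adjusted p = 0.000138) and 1.95 ± 0.52 for Mt1 (adjusted p = 0.00615). The Mt1 call was lost without replicate 1 of the mice not irradiated, where it was 0.96 (adjusted p = 0.0987), and under median-of-ratios scaling (0.94, adjusted p = 0.101), without Paneth cell products (1.22, adjusted p = 0.0728) and after quantile normalization (0.32, adjusted p = 0.559). The Slc30a4 call was lost after quantile normalization (0.34, adjusted p = 0.122). Mt2, at 1.45 ± 0.67, and Slc30a2, at -0.48 ± 0.25, did not pass (adjusted p = 0.0716 and 0.114). Mt2 did pass when replicate 2 of the mice not irradiated, irradiated CD24+ replicate 1 or 3, or CD24- replicate 1 was left out (1.45 to 2.49, adjusted p = 0.0174, 0.0390, 0.0286 and 0.0441), and Slc30a2 passed as lower without replicate 2 of the mice not irradiated (-0.68, adjusted p = 0.0474) and without CD24- replicate 3 (-0.67, adjusted p = 0.0371). Other scalings also called Slc30a2 lower: it was -1.45 after median-of-ratios scaling (adjusted p = 0.00752), -1.24 without Paneth cell products (adjusted p = 0.00359) and -1.68 after quantile normalization (adjusted p = 0.00472). Slc39a7, at -0.075 ± 0.26 in FPKM (adjusted p = 0.805), was called lower under the same 3 scalings, at -1.09, -0.84 and -1.65 (adjusted p = 0.000247, 0.0117 and 6.28e-05). In TPM both turned, to 0.87 for Slc30a2 and 1.33 for Slc39a7. Slc30a7 passed as higher without replicate 2 of the mice not irradiated (0.47, adjusted p = 0.0345). The median was 1.49 over the 10 genes and 0.88 over all genes. Over all genes the split of higher and lower calls was 7349 and 558 in FPKM, 10430 and 212 in TPM, 3316 and 2465 after median-of-ratios scaling, 3656 and 1201 without Paneth cell products and 2729 and 2905 after quantile normalization.

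**Figure D4:**
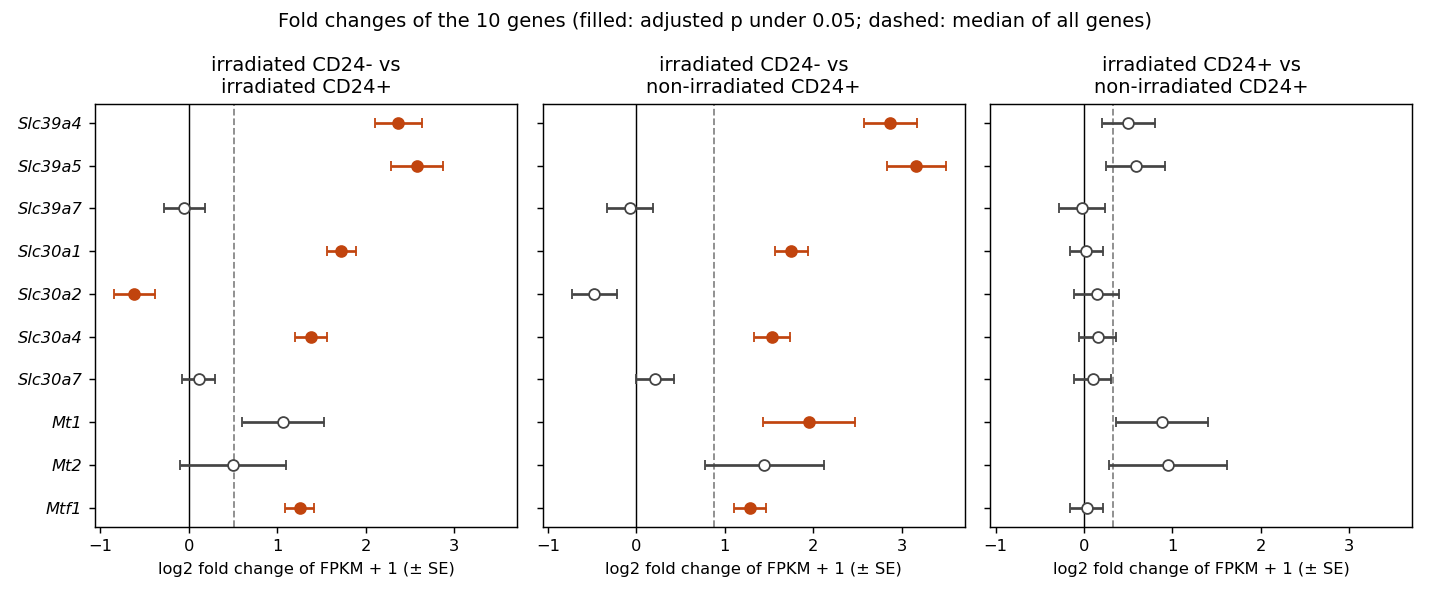
Log2 fold change of FPKM + 1 with its standard error (horizontal axes) for the 10 genes in the 3 comparisons; filled points passed an adjusted p of 0.05 and dashed lines mark the median over all genes tested. In irradiated CD24- against irradiated CD24+ cells 5 genes are called above 0 and Slc30a2 below it, and in irradiated against not irradiated CD24+ cells 0 are called.

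Another 19 zinc transporter and metallothionein genes of the same families were listed for comparison, of which 14 passed the filter. In irradiated CD24- against irradiated CD24+ cells 8 of the 14 were called higher and 4 lower, beside 48.6% and 7.27% of all genes, with a median log2 fold change of 0.69 against 0.51 over all genes; the split was 9 and 1 in TPM, 5 and 6 after median-of-ratios scaling, 4 and 6 without Paneth cell products and 3 and 6 after quantile normalization. In irradiated CD24- cells against CD24+ cells of mice not irradiated, 8 were called higher and 3 lower, beside 65.7% and 4.99% of all genes; the split was 10 and 0 in TPM, 4 and 6 after median-of-ratios scaling, 4 and 5 without Paneth cell products and 1 and 5 after quantile normalization. In irradiated against not irradiated CD24+ cells 0 were called in either direction, with 0 at an unadjusted p under 0.05.

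Of the higher genes, Slc30a10, which encodes an exporter of manganese, stood out in ratio: it was at 7.43, 13.0 and 17.4 FPKM in irradiated CD24- libraries, 0.326, 0.436 and 0.562 FPKM in irradiated CD24+ libraries, and 0.214 and 1.88 FPKM in CD24+ libraries of mice not irradiated. The CD24- libraries were all above the rest, and without them the gene would not have passed the filter on low values, so a difference was built into its being tested. It had a log2 fold change between the irradiated gates of 3.17 ± 0.33 (SE; limma, adjusted p = 2.17e-05; with no filter, 0.0011). Slc39a14, an importer of zinc, iron and manganese, averaged 21.1 ± 0.796 FPKM in irradiated CD24- and 6.62 ± 1.13 FPKM in irradiated CD24+ cells, and Slc39a9, a zinc importer, 51.9 ± 6.77 and 17.2 ± 1.30 FPKM (SD, n = 3 each). Slc30a5 and Slc30a6, which together form a zinc transporter of the secretory pathway, differed by 1.11 ± 0.24 and 0.80 ± 0.19 on the log2 scale. Slc30a9, Slc39a1 and Slc39a3 differed by 0.90 ± 0.19, 0.76 ± 0.22 and 0.62 ± 0.18 (SE). These 5 depended on the scaling. After quantile normalization Slc39a1 turned to -0.30 and Slc30a5, Slc30a6, Slc30a9 and Slc39a3 were no longer called, at 0.088, 0.060, 0.13 and 0.14 (adjusted p = 0.537, 0.694, 0.300 and 0.273). Without Paneth cell products Slc30a6, Slc30a9, Slc39a1 and Slc39a3 were no longer called, at 0.29, 0.39, 0.21 and 0.17, and after median-of-ratios scaling Slc30a6, Slc39a1 and Slc39a3 were not, at 0.27, 0.21 and 0.15. Slc39a3 also lost its call without irradiated CD24+ replicate 1 or 3 (adjusted p = 0.0531 and 0.0568). Slc30a10, Slc39a14 and Slc39a9 kept their calls under all 17 alternatives.

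Of the lower genes, the plasma membrane importer Slc39a10 was at 3.17, 1.86 and 1.52 FPKM in irradiated CD24- libraries, 10.5, 7.70 and 8.35 FPKM in irradiated CD24+ libraries, and 7.09 and 7.18 FPKM in CD24+ libraries of mice not irradiated. The CD24- libraries were the 3 lowest, with a log2 fold change between the irradiated gates of -1.65 ± 0.21 (SE; limma, adjusted p = 8.78e-05) that kept its call under all 17 alternatives. Slc39a8, an importer of zinc and manganese, averaged 4.44 ± 1.29 FPKM in irradiated CD24- cells and 14.2 ± 1.69 FPKM in irradiated CD24+ cells (SD, n = 3 each), a log2 fold change of -1.51 ± 0.22 (SE; limma, adjusted p = 0.000189), which was not called in TPM (-0.40, adjusted p = 0.131). The remaining lower calls, Slc39a13 at -0.72 and Slc39a6 at -0.49, were named after their values were seen and turned to 0.075 and 0.26 in TPM. Slc39a6 was at 0.979, 0.919 and 1.31 FPKM in irradiated CD24- libraries and passed the filter on low values only with its CD24+ libraries. A difference was thus built into its being tested, and with no filter it was not called (limma, adjusted p = 0.0655). Of the 16 alternatives that tested Slc39a6, 6 lost its call and 1 turned it. The Slc39a importers therefore held genes higher in CD24- cells (Slc39a4, Slc39a5, Slc39a9 and Slc39a14) and one lower in them (Slc39a10) whose calls held under every alternative.

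**Figure D5:**
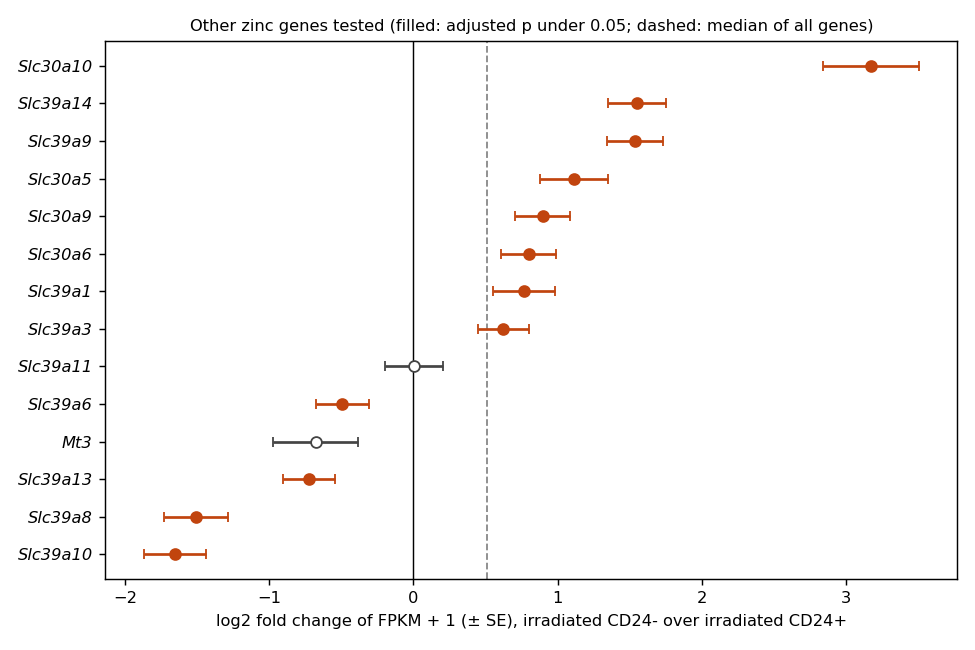
Log2 fold change of FPKM + 1 with its standard error (horizontal axis), irradiated CD24- over irradiated CD24+ cells, for the 14 further zinc genes tested; filled points passed an adjusted p of 0.05 and the dashed line marks the median of all genes, 0.51. Slc30a10 is highest at 3.17 and Slc39a10 lowest at -1.65.

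The genes most like 3 of the zinc genes over the 8 libraries were found by the root-mean-square difference of their log2 profiles, each centred on its own mean; this is a description without a test. Closest to Slc39a4 were Cs (citrate synthase), Tradd (an adaptor of tumour necrosis factor receptor signalling), Krt8 (an epithelial keratin) and Abcc3 (a basolateral transporter), at 0.112, 0.128, 0.128 and 0.135, against a median of 0.980 over all genes. Closest to Slc30a2 were Eid1, Dbn1, Hs3st3b1 and Taf9b, at 0.0953 to 0.146 against a median of 0.726. All but Eid1 averaged under 1.5 FPKM in every group, and Eid1 averaged 4.77 FPKM in irradiated CD24- cells, 7.74 FPKM in irradiated CD24+ cells and 6.96 FPKM in CD24+ cells of mice not irradiated. Closest to Mt1 were Fbln1, Lgals3bp, Lgals9 and Gm6548, at 0.213 to 0.307, against a median of 0.723. Such distances depend on how much a gene itself varies. The root-mean-square deviation from its own mean was 1.29 for Slc39a4, 0.355 for Slc30a2 and 0.980 for Mt1. The small distances around Slc30a2 are therefore not comparable with those around Mt1.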

How the data were processed

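The FPKM values were made by the authors and deposited as a table of 24015 entries (24013 symbols) by 8 libraries. Per the submitters' processing notes, TopHat2 2.1.0, StringTie 1.3.4 and the mm9 build were used; per the labels, libraries were made with the TruSeq RNA v2 kit. No per-sample column was left unused. From the table, log2(FPKM + 1) of the 11190 genes with at least 1 FPKM in at least 2 libraries was fitted over all 3 groups with limma 3.58.1 (trend; R 4.3.3), and p-values were adjusted by Benjamini-Hochberg over all genes, with a threshold of 0.05. The fit was tested on simulated data with independent noise and few genes changed, as many up as down. That setting had no pairing and no shift of scaling. It is unlike the contrast of the irradiated gates, where 55.9% of genes were called, and says little about it. Plots and ratios used Python 3.11.15 and matplotlib 3.10.9. Members, lists and tests were chosen with earlier results of these data known. All 10 genes are named. Other zinc genes are named where called and at 5 FPKM or more in the higher group. Slc39a13 and Slc39a6 are exceptions, below that level and named after their values were seen. Same-numbered irradiated libraries deviated together (r = 0.366, 0.231 and 0.402), so the numbers were taken to pair the irradiated gates. This pairing was chosen on the same data that the block then tests, and the labels do not say what a number marks. Depth is approximate, since it uses GENCODE transcript lengths rather than the authors' annotation. Alternatives were the pseudocount, filter, scaling, samples in the fit, leaving out each library and the replicate block.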

Additional observations from a re-analysis of the deposited data

How the results depend on the processing

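Of 708 single-gene values under 17 alternatives, 596 kept their direction and side of the threshold, 31 lost the call, 32 gained it and 49 turned. TPM divides each library by its summed FPKM, which raises every gene in CD24- relative to CD24+ libraries. That sum was 540467 to 582799 in irradiated CD24-, 1329221 to 1429911 in irradiated CD24+ and 1435059 to 1638347 in not irradiated CD24+ libraries. Other causes of the changes were not tested. Between the irradiated gates (CD24- over CD24+), TPM called 10260 of all 11190 genes and 10 of the 10 zinc genes, and turned Slc30a2 (0.58), Slc39a7 (1.19), Slc39a6 (0.26) and Slc39a13 (0.075). Median-of-ratios scaling turned Mt2 (-0.035) and Slc30a7 (-0.38). Values without Paneth cell products turned Mt2 (-0.034) and Slc30a7 (-0.42). Quantile normalization turned Mt1 (-0.18), Mt2 (-0.36), Slc30a7 (-0.48) and Slc39a1 (-0.30). Leaving out each library in turn gave 5064 to 7055 genes and 5 to 7 of the 10, with Slc39a7 from -0.15 to 0.029. The replicate block changed the Mt1 and Mt2 calls given above and no other call among the 10.

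In irradiated CD24- cells against CD24+ cells of mice not irradiated, TPM called 10 of the 10, beside 10642 of all 11190 genes, and turned Slc30a2 (0.87) and Slc39a7 (1.33), and values without Paneth cell products called 4857 genes, against 7907 in FPKM. Slc30a7 turned to -0.70 after median-of-ratios scaling, -0.50 without Paneth cell products and -0.77 after quantile normalization. Leaving out each library gave 6109 to 8748 genes and 5 to 9 of the 10, with Slc30a7 from -0.049 to 0.47 and Slc39a7 from -0.40 to 0.25. Without numbers known to pair these groups, the replicate block called Mt2 (0.96, adjusted p = 0.00788).

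In irradiated against not irradiated CD24+ cells, 1 gene was called with no filter, 3 after median-of-ratios scaling, 4 after quantile normalization, 17 with these 2 groups alone and 92 with the replicate block, which turned Slc30a1 (-0.026). TPM turned Slc39a7 (0.14). Under median-of-ratios scaling Mtf1 (-0.27), Slc30a1 (-0.18), Slc30a2 (-0.31), Slc30a4 (-0.27) and Slc30a7 (-0.31) turned. Without Paneth cell products Mtf1 (-0.12), Slc30a1 (-0.077), Slc30a2 (-0.052), Slc30a4 (-0.029) and Slc30a7 (-0.080) turned. After quantile normalization Mtf1 (-0.26), Slc30a1 (-0.21), Slc30a2 (-0.26), Slc30a4 (-0.24) and Slc30a7 (-0.29) turned. Leaving out each library gave 0 to 5185 genes and 0 to 3 of the 10; ranges were -0.11 to 1.88 (Mt1), -0.087 to 1.99 (Mt2), -0.14 to 0.21 (Mtf1), -0.17 to 0.22 (Slc30a1), -0.064 to 0.35 (Slc30a2), -0.0086 to 0.31 (Slc30a4), -0.16 to 0.36 (Slc30a7) and -0.35 to 0.30 (Slc39a7), and -0.17 to 0.34 for the log2 Mt2 to Mt1 ratio. With 2 libraries of mice not irradiated, that comparison has little precision, and with only 2 same-numbered pairs (r = 0.232 and -0.0499) its replicate numbers were not taken as pairs.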
